A study of Glycine max with 6 samples.

Results

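Soybean carries *GmNAC043* (Glyma06g38410) and *GmNAC044* (Glyma06g38440) close to each other on chromosome 6, and *GmNAC085* (Glyma12g22880) and *GmNAC084* (Glyma12g22790) close to each other on chromosome 12. These 4 genes, 4 of the 66184 gene IDs on the array, were examined in leaves of V6 plants under drought. They were chosen by name, with their drought response in these samples already known. The study lists *GmNAC043* and *GmNAC085* as raised by drought in both V6 and R2 leaves. *GmNAC044* and *GmNAC084* are listed as raised in R2 leaves only. Because of this choice, the drought response of all 4 genes is given as a description, without a p-value and without a call. Each gene had 1 probe, and none of the 4 probes had values identical to those of another probe.

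RNA came from the fourth trifoliate leaf of 3 drought-stressed plants (plants 1, 2 and 4) and 3 well-watered plants (plants 14, 15 and 16) of cv. Williams 82, with 1 array per plant. Drought-stressed plants were without water for 6 days, until soil moisture had dropped to 5%, and well-watered plants were watered as usual. The labels give an age of 28 days at the start of treatment, and elsewhere 35 days for the V6 stage. They name 4 biological repeats as grown, and 3 plants per group were on arrays. All plants were grown with 3 to a pot, and the sources used here do not say which plants shared a pot, so each p-value measures the spread between these plants and treats them as independent. The deposited values are log2 signals with the median of every probe set to 0 over the 6 arrays. They hold differences between plants but no level, so leaf marker genes could not be checked, no gene's level can be set against another's, and it cannot be read from them whether a gene that did not move was expressed in the leaf at all. In whole leaves, fewer cells of a type and less RNA per cell cannot be told apart.

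NAC proteins are a plant-specific family of transcription factors (TFs). They bind DNA through a conserved NAC domain at the N-terminus, and their variable C-terminal part activates or represses target genes. In *Arabidopsis*, *ANAC019*, *ANAC055* and *ANAC072* are induced by drought and abscisic acid, and their overexpression raises drought tolerance. Some of these *Arabidopsis* genes also have a NAC gene as direct neighbour, *ANAC018* beside *ANAC019* and *ANAC056* beside *ANAC055*, and these neighbours are known for their part in seed development. The tables used here do not give the *Arabidopsis* match of the 4 soybean genes. Overexpression of *GmNAC085* is known to raise drought tolerance in transgenic *Arabidopsis*. The soybean genome carries many duplicated segments from ancient genome duplications. Whether the chromosome 6 and chromosome 12 pairs are such duplicates was not examined here, since no sequences were used.

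In drought-stressed leaves, *GmNAC043* and *GmNAC085* lay about 11-fold above their well-watered signal, *GmNAC084* about 2-fold above it, and *GmNAC044* at the same signal within the spread between plants. The neighbours thus differed on both chromosomes, but not in the same way. On chromosome 6 only *GmNAC043* lay higher under drought. On chromosome 12 both genes did, and the size of the difference set them apart.

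*GmNAC043* had centred log2 signals of 1.36, 1.83 and 2.25 in drought-stressed plants 1, 2 and 4, against -1.36, -1.51 and -2.14 in well-watered plants 14, 15 and 16. The groups were far apart, with 2.73 between the lowest drought-stressed and the highest well-watered plant. The means were 1.82 ± 0.45 in drought-stressed leaves and -1.67 ± 0.41 in well-watered leaves (SD, n = 3 each). The log2 fold change was 3.49 (standard error 0.27), an 11.2-fold difference.

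Its neighbour *GmNAC044* had centred log2 signals of -0.018, -0.13 and 0.039 in drought-stressed plants 1, 2 and 4, against 0.14, -0.12 and 0.018 in well-watered plants 14, 15 and 16. The groups overlapped, and the 2 lowest plants were 1 drought-stressed plant (plant 2) and 1 well-watered plant (plant 15). The means were -0.037 ± 0.087 in drought-stressed leaves and 0.013 ± 0.13 in well-watered leaves (SD, n = 3 each). The log2 fold change was -0.050 (standard error 0.16), beside a median change of -0.050 over all 66195 probes.

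On chromosome 12, *GmNAC085* had centred log2 signals of 1.29, 1.57 and 2.63 in drought-stressed plants 1, 2 and 4, against -1.29, -1.79 and -1.82 in well-watered plants 14, 15 and 16. The groups were 2.57 apart at their nearest plants. Plant 4 stood well above the other drought-stressed plants, and the SD was accordingly larger under drought. The means were 1.83 ± 0.71 in drought-stressed leaves and -1.63 ± 0.30 in well-watered leaves (SD, n = 3 each). The log2 fold change was 3.46 (standard error 0.32), a 10.98-fold difference.

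*GmNAC084*, its neighbour, had centred log2 signals of 0.34, 0.35 and 0.86 in drought-stressed plants 1, 2 and 4, against -0.47, -0.63 and -0.34 in well-watered plants 14, 15 and 16. The groups did not overlap, but they were only 0.68 apart at their nearest plants. The means were 0.52 ± 0.30 in drought-stressed leaves and -0.48 ± 0.14 in well-watered leaves (SD, n = 3 each). The log2 fold change was 0.998 (standard error 0.19), which is 1.997-fold and so just under the fold of 2 that the study used as its threshold. Small changes in scaling move it over that line: it was 1.03 with each array centred on its median and 1.01 with quantile normalization, and 0.83 without drought-stressed plant 4.

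**Figure D1:**
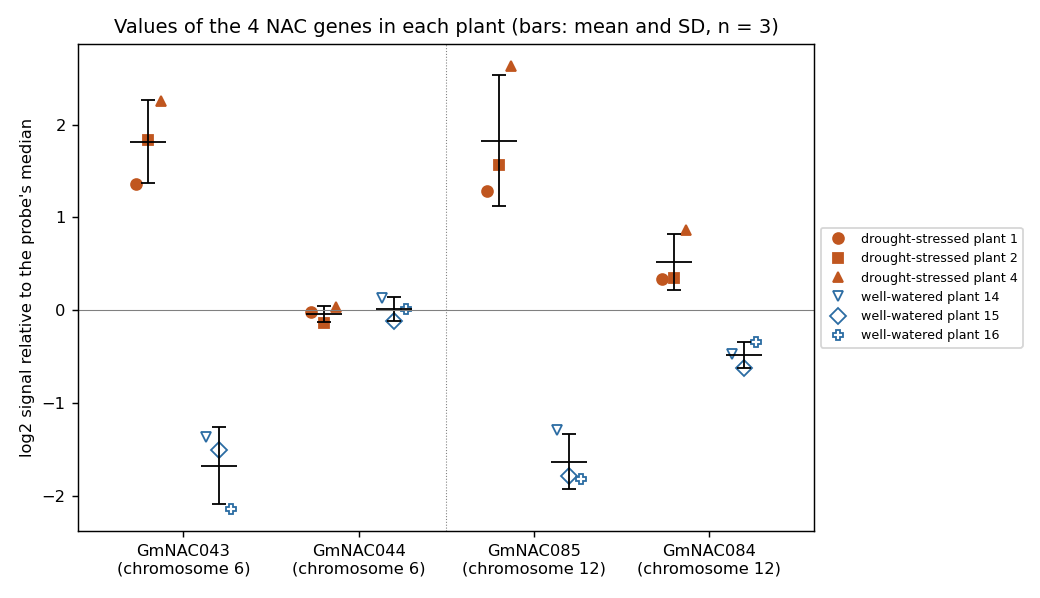
Centred log2 signal (vertical axis) of each of the 4 genes in each plant, with drought-stressed plants as filled symbols and well-watered plants as open symbols; horizontal bars are group means and whiskers the SD (n = 3). *GmNAC043* and *GmNAC085* are apart by 2.73 and 2.57 at their nearest plants, *GmNAC084* by 0.68, and the groups of *GmNAC044* overlap.

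For 3 of the 4 genes the drought-stressed plants all lay above the well-watered plants. Over all probes the groups did not overlap in 31.3%, and in 14.4% the drought-stressed plants were the higher ones, but nothing is read from the count for the 4 genes, since they were chosen on this contrast. With a threshold of 2-fold and a limma adjusted p below 0.05, drought raised 4.33% and lowered 5.14% of all 66195 probes, together 9.46%. In order of log2 fold change from the highest down, *GmNAC043* stood at place 235, *GmNAC085* at 242, *GmNAC084* at 2956 and *GmNAC044* at 33014 of the 66195 probes. The first pair of places, 235 and 242, is separated by less than the standard error of either gene. The other places are further apart than the standard errors.

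The gap between neighbours can be followed within each plant, where both genes were measured on the same array. *GmNAC043* minus *GmNAC044* was 1.38, 1.97 and 2.22 in drought-stressed plants 1, 2 and 4, against -1.50, -1.39 and -2.16 in well-watered plants 14, 15 and 16. Because the values are centred, only the change in this gap between conditions has a meaning, and it was 3.54 (standard error 0.34) on the log2 scale. *GmNAC085* minus *GmNAC084* was 0.95, 1.21 and 1.77 in drought-stressed plants 1, 2 and 4, against -0.81, -1.16 and -1.47 in well-watered plants 14, 15 and 16. This gap changed by 2.46 (standard error 0.31). Expressed as folds, the responses of the neighbours differed 11.6-fold on chromosome 6 and 5.50-fold on chromosome 12. The chromosome 6 gap changed by 1.08 (standard error 0.18) more than the chromosome 12 gap.

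Set side by side across the chromosomes, *GmNAC043* and *GmNAC085* had nearly the same response. *GmNAC043* minus *GmNAC085* was 0.076, 0.27 and -0.37 in drought-stressed plants 1, 2 and 4, against -0.076, 0.28 and -0.33 in well-watered plants 14, 15 and 16. The groups overlapped, and the log2 fold changes of the genes differed by 0.032 (standard error 0.26). It was -0.095 with array quality weights and ran from -0.11 to 0.21 without each plant in turn, so the data give no order of these genes. *GmNAC044* minus *GmNAC084* was -0.36, -0.48 and -0.82 in drought-stressed plants 1, 2 and 4, against 0.61, 0.51 and 0.36 in well-watered plants 14, 15 and 16. These groups did not overlap, and the log2 fold changes differed by -1.05 (standard error 0.16). The unequal gaps on the chromosomes therefore lay in the neighbours *GmNAC044* and *GmNAC084*, not in *GmNAC043* and *GmNAC085*. How well the probes of these genes tell near-identical copies apart was not examined, so signals of closely similar genes are uncertain to that extent.

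**Figure D2:**
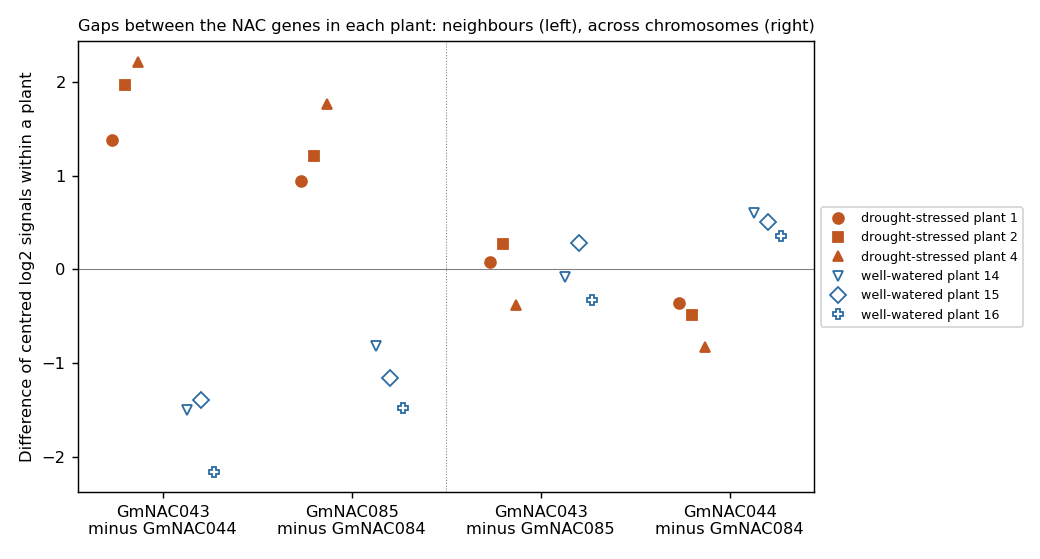
Difference of the centred log2 signals of 2 genes within each plant (vertical axis), for the neighbours (left) and for the genes across chromosomes (right); filled symbols are drought-stressed plants and open symbols well-watered plants. The change between conditions was 3.54 and 2.46 for the neighbours, 0.032 for *GmNAC043* minus *GmNAC085* and -1.05 for *GmNAC044* minus *GmNAC084*.

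Likeness over all 6 plants was measured as the root mean square difference of the centred log2 signals. By this measure *GmNAC043* was at place 7 of 66194 other probes in likeness to *GmNAC085* (0.26), and *GmNAC085* was at place 19 in likeness to *GmNAC043*. The chromosomal neighbours came later in these orders, on chromosome 6 much later than on chromosome 12. *GmNAC044* was at place 32451 from *GmNAC043* (1.80), and *GmNAC084* at place 2448 from *GmNAC085* (1.27). *GmNAC084* in turn was at place 58108 in likeness to *GmNAC044* (0.55), so most probes on the array lay nearer to *GmNAC044* than *GmNAC084* did. The measure follows the size of the drought response, which was known when the genes were chosen, as well as the order of the plants. The Pearson correlation over the 6 plants does not depend on the scale of a response. It still follows the drought contrast, which was known at the choice, because it takes both conditions together. Genes that separate the groups in the same direction reach a high correlation by that alone. The correlation was 0.98 for *GmNAC085* and *GmNAC084*, close to the 0.99 for *GmNAC043* and *GmNAC085*. For *GmNAC043* and *GmNAC044* it was -0.23, and for *GmNAC044* and *GmNAC084* -0.052.

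The 3 probes nearest to *GmNAC043* belonged to Glyma15g40760 (0.091), Glyma11g09690 (0.15) and Glyma05g26960 (0.16). Those nearest to *GmNAC085* belonged to Glyma12g13290 (0.20), Glyma08g06110 (0.24) and Glyma19g42010 (0.24). *GmNAC043* and *GmNAC085* thus shared no gene among their 3 nearest. *GmNAC084* was nearest to Glyma13g19310 (0.056), Glyma09g25190 (0.064) and Glyma19g36740 (0.068), and *GmNAC044* to Glyma14g21540 (0.015), Glyma05g30780 (0.026) and Glyma17g33910 (0.028). The tables used here describe none of these 12 genes.

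Among drought-stressed plants, plant 4 had the highest signal of all 4 genes. It stood above its group mean by 0.44 for *GmNAC043*, 0.80 for *GmNAC085*, 0.35 for *GmNAC084* and 0.076 for *GmNAC044*. Plant 1 had the lowest signal of *GmNAC043*, *GmNAC085* and *GmNAC084*, though for *GmNAC084* plants 1 and 2 had almost the same signal. A highest signal in plant 4 was common on the arrays: of the 2864 probes called higher under drought, it was the highest of the 3 drought-stressed plants in 59.9%. The lowest was plant 1 in 44.7% of these probes and plant 2 in 38.5%. Among well-watered plants the genes did not share an order. Plant 14 was highest for *GmNAC043*, *GmNAC085* and *GmNAC044*, and plant 16 for *GmNAC084*. Over all probes, plant 14 also had the highest array median of the 6, 0.13, and plant 16 the lowest, -0.097. The part of these array medians in the order was not tested.

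The genes around and between the neighbours give the setting in which the pairs diverged. In gene ID order, 2 genes of the array lie between *GmNAC043* and *GmNAC044*, and 7 between *GmNAC084* and *GmNAC085*. None of these 9 was called by limma, none by the methods' t-test, and 1 had an unadjusted p under 0.05. Over all 66195 probes, limma called 9.46%, and 17546 had an unadjusted limma p under 0.05. The counts between the neighbours are too small to set these genes apart from the array as a whole. Between the chromosome 12 pair, the 7 log2 fold changes ran from -0.22 to 0.25. Between the chromosome 6 pair, Glyma06g38420 had a log2 fold change of 0.0097 (standard error 0.22) and Glyma06g38430, next to *GmNAC044*, one of -0.93 (SE 0.22, limma adjusted p = 0.0165). The signals of Glyma06g38430 were -0.31, -0.27 and -1.05 in drought-stressed plants 1, 2 and 4, against 0.47, 0.27 and 0.43 in well-watered plants 14, 15 and 16. The groups did not overlap, but the change was under the fold of 2. It passed that threshold without drought-stressed plant 1 (-1.05) or without drought-stressed plant 2 (-1.07).

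Of the 40 genes that flank the pairs, 10 to each side, 1 was higher and 1 lower in drought-stressed leaves. Together with the 9 genes between, this is 4.08% of 49 genes, against 9.46% of all probes. Their median log2 fold change was -0.054, against -0.050 over all probes. Glyma12g22930, the fifth gene beyond *GmNAC085*, fell. Its signals were -1.38, -2.19 and -2.25 in drought-stressed plants 1, 2 and 4, against 1.415, 1.92 and 1.38 in well-watered plants 14, 15 and 16. These groups were far apart, and the log2 fold change was -3.51 (SE 0.26, limma adjusted p = 1.05e-05), about as large as the rise of *GmNAC085* and opposite in sign. On chromosome 6, Glyma06g38350, the sixth gene before *GmNAC043*, rose, with signals of 0.33, 0.41 and 0.76 in drought-stressed plants 1, 2 and 4, against -0.70, -0.72 and -0.33 in well-watered plants 14, 15 and 16. Its log2 fold change was 1.08 (SE 0.19, limma adjusted p = 0.00284), and without drought-stressed plant 4 it was 0.95 and not called. The tables used here describe neither gene.

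**Figure D3:**
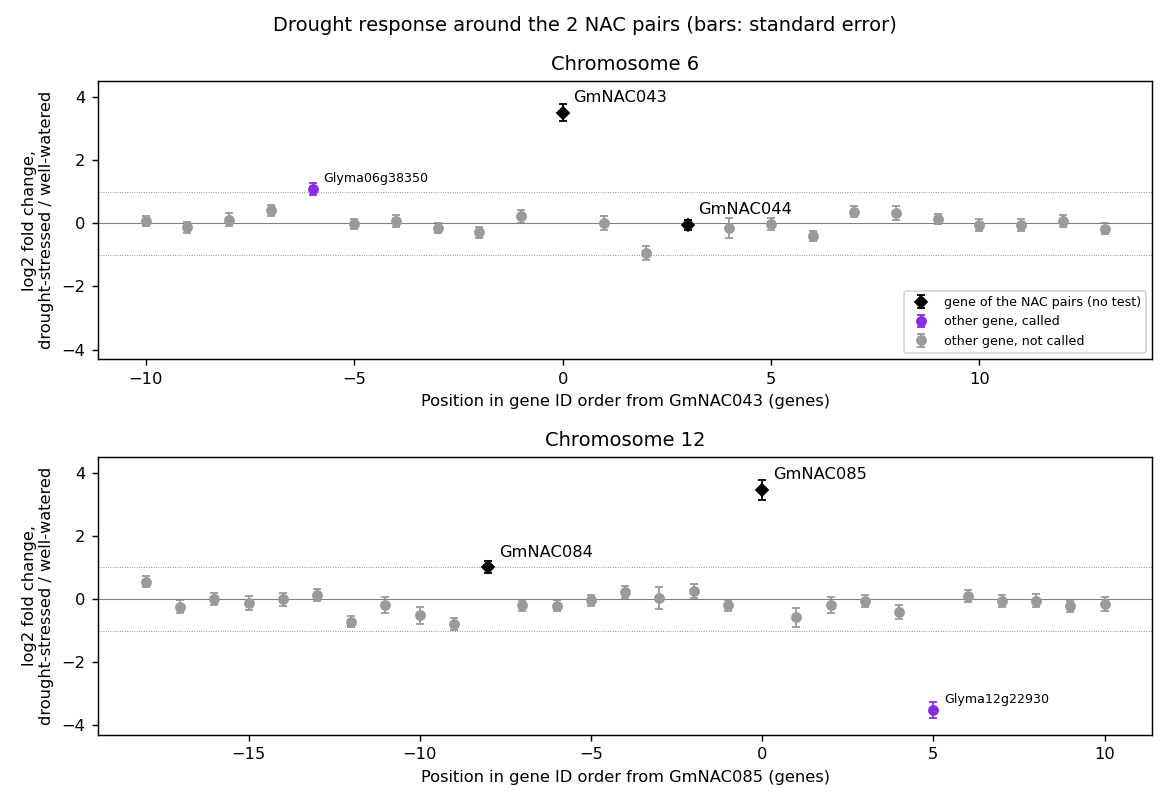
Log2 fold change, drought-stressed against well-watered (vertical axis, whiskers are standard errors) for each gene in ID order around *GmNAC043* on chromosome 6 and *GmNAC085* on chromosome 12; black diamonds are the 4 NAC genes, which are shown without a call, and points are the 49 other genes, purple where called and grey where not. Of these 49, Glyma06g38350 at 1.08 and Glyma12g22930 at -3.51 were called.

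Most pairs of gene IDs at these distances differed less in their log2 fold changes than the NAC pairs did. Of 65696 pairs of gene IDs with 2 IDs between them on a chromosome, 1.29% differed by at least the 3.54 of *GmNAC043* and *GmNAC044*, and the median difference was 0.39. Of 65596 pairs with 7 IDs between them, 3.77% differed by at least the 2.46 of *GmNAC085* and *GmNAC084*, with a median of 0.39. The median was the same at both distances, and only 9.46% of all probes were called, so most of these pairs join genes that changed little. Whether close genes respond more alike than distant ones was not tested. These shares describe where the NAC pairs lie on the array and are no test, since the pairs were chosen with the difference in view.

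**Figure D4:**
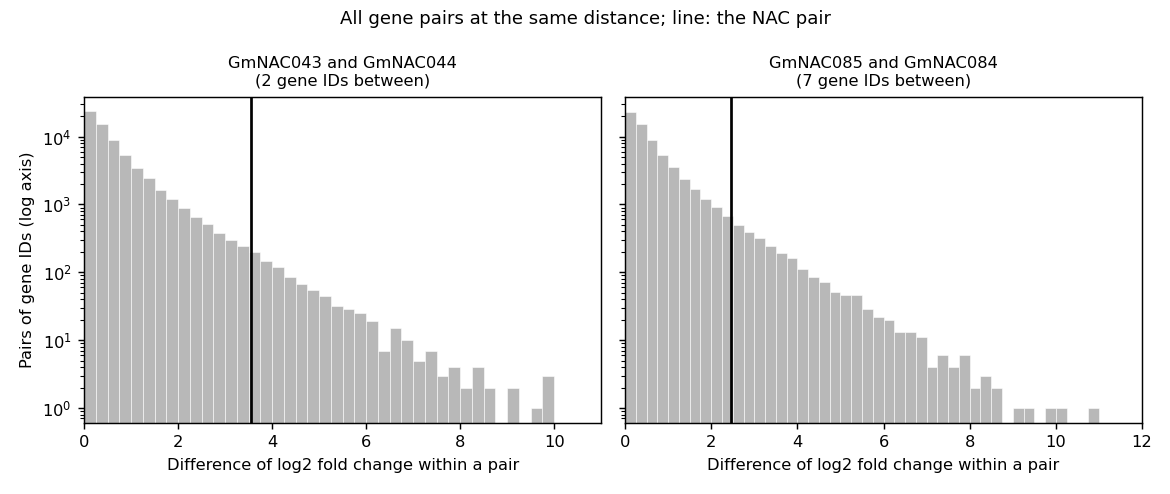
Number of gene pairs (vertical log axis) by the difference of their log2 fold changes (horizontal axis), for all pairs with 2 (left) or 7 (right) gene IDs between them; the line marks the NAC pair, at 3.54 and 2.46. Beyond the lines lie 1.29% and 3.77% of the pairs.

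The study's tables list 36 NAC genes, those that passed its threshold in V6 or R2 leaves and not the whole family. The 32 besides these 4 were set beside them. With limma, 18 of the 32 were higher, 5 lower and 9 not called in drought-stressed V6 leaves, with a median log2 fold change of 1.28, against -0.050 over all probes, of which 9.46% were called. The methods' t-test called 16 higher and 5 lower, and 5.75% of all probes. These genes were listed by the study for their change in these samples or in R2 leaves. Neither the counts nor the p-values of genes listed for V6 leaves are therefore independent evidence. Among all 36, *GmNAC043* and *GmNAC085* stood at places 4 and 5 from the top, *GmNAC084* at place 21 and *GmNAC044* at place 27. Above the first pair was a group of 3 genes, led by *GmNAC092* with 5.50 (SE 0.21, limma adjusted p = 2.64e-07), and below it the next gene, *GmNAC123*, was at 2.47. The largest fall was that of *GmNAC057*, at -4.79 (SE 0.41, limma adjusted p = 2.98e-05).

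**Figure D5:**
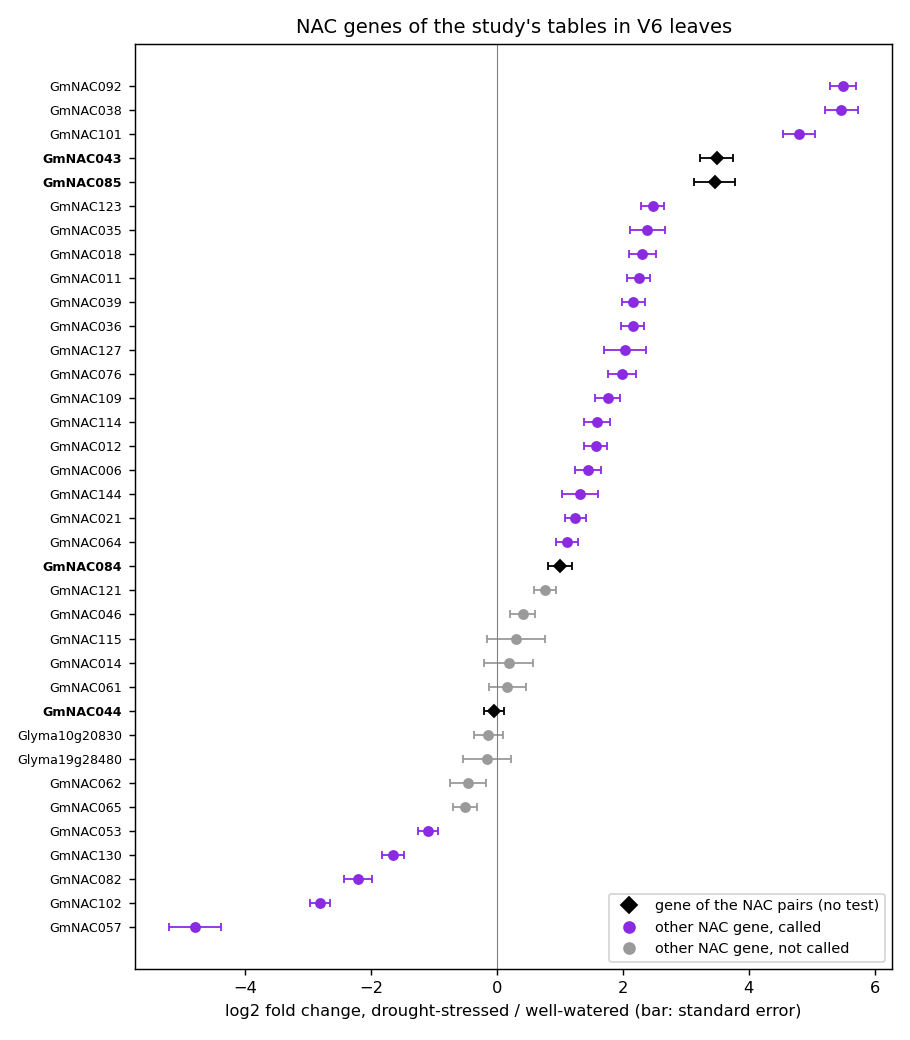
Log2 fold change, drought-stressed against well-watered V6 leaves (horizontal axis, whiskers are standard errors) for the 36 NAC genes of the study's tables, ordered by value. *GmNAC043* and *GmNAC085* lie side by side at 3.49 and 3.46, and *GmNAC084* (0.998) and *GmNAC044* (-0.050) lie lower in the order.

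Of these 36 genes, 2 further pairs lie within 10 gene IDs of each other. *GmNAC101* and *GmNAC102*, adjacent on chromosome 13, moved in opposite directions. *GmNAC101* rose, with 4.79 as its log2 fold change (SE 0.25, limma adjusted p = 1.54e-06), whereas *GmNAC102* fell, with -2.81 (SE 0.16, limma adjusted p = 2.31e-06). Both were listed by the study for their change in these V6 samples, so these p-values repeat that choice and are no independent test. The difference between *GmNAC101* and *GmNAC102*, 7.60 (standard error 0.28), was larger than that of either pair on chromosomes 6 and 12. *GmNAC144* and the NAC-like gene Glyma19g28480, with 3 gene IDs between them on chromosome 19, had log2 fold changes of 1.32 (SE 0.29, limma adjusted p = 0.0107) and -0.16 (SE 0.38, limma adjusted p = 0.867). *GmNAC144* minus Glyma19g28480 was 1.37, 0.63 and 0.89 in drought-stressed plants 1, 2 and 4, against -0.79, -1.45 and 0.70 in well-watered plants 14, 15 and 16. The groups overlapped, so the difference of 1.48 (standard error 0.67) does not set the genes of this pair apart beyond the spread between plants. The methods' t-test did not call *GmNAC144*. In the *GmNAC101* pair both genes moved by more than 4-fold, and in the *GmNAC085* pair both lay higher. In the *GmNAC043* pair, the log2 fold change of 1 gene was about the median log2 fold change of all probes.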

How the data were processed

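Leaf RNA of 3 drought-stressed and 3 well-watered plants was measured with 1 Affymetrix soybean array per plant. The authors deposited log2 values, made as RMA summaries at gene level in Affymetrix Expression Console without normalization and then scaled in GeneSpring by the 75th percentile. The median of each probe over the 6 deposited arrays is 0, so values were also centred. The deposited comparison holds a signed fold change (a score), a p-value and a corrected p-value made by the authors, and only its gene names were used.

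All 66195 probes were fitted in limma 3.58.1 (lmFit, eBayes; R 4.3.3), with Benjamini-Hochberg adjustment over all probes and no filter, and a gene was called at a 2-fold change or more with an adjusted p below 0.05. Residual and prior degrees of freedom were 4 and 5.93. The standard error had a median of 0.19. An exact permutation test of 3 against 3 plants cannot give a p under 0.1. The number of arrays limits the precision. Standard errors of gaps come from differences within plants. On simulated data with 66195 probes, 18 of 40 probes changed 2-fold and 40 of 40 changed 4-fold were called by limma, with 15 false calls. A true 2-fold change sits on the fold threshold, so its estimates fall on either side of it. On the same simulated data the methods' t-test called 0 of 40 at 2-fold, 1 at 4-fold and 4 at 8-fold. Far fewer probes changed in the simulation than in the data, where limma called 9.46% and the t-test 5.75%. The adjustment is therefore harsher in the simulation. The simulated noise was normal and independent between probes, with variances that limma had already drawn towards each other, which can make its calls easier. For both reasons the simulated shares do not give the share of true changes called in these data. A gene that the t-test does not call may still have changed.

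The genes and lists were chosen with earlier results of these data known. Named are the 4 genes, the 3 nearest probes of each, called genes among 10 gene IDs to each side, neighbouring NAC pairs, and the largest rise and fall of the NAC list. Alternatives were array scaling, array weights, the methods' t-test, no fold minimum, a robust prior, identical probes counted a single time and each plant left out. Plant numbers come from the sample labels. Of the 4 gene names, 1 (*GmNAC085*) was found in the RefSeq gene table of another assembly, so no coordinates and no sequences are given, and NAC genes could not be listed from that table.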

Additional observations from a re-analysis of the deposited data

How the results depend on the processing

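With array scaling or array weights, the log2 fold changes of the 4 genes moved by less than the spread between plants. They cannot move with the methods' t-test, no fold minimum, a robust prior or identical probes counted a single time. Without each plant in turn, they ran from 3.25 to 3.72 for *GmNAC043*, from 3.06 to 3.73 for *GmNAC085*, from 0.83 to 1.09 for *GmNAC084* and from -0.11 to 0.012 for *GmNAC044*. The gaps ran from 3.30 to 3.78 for *GmNAC043* minus *GmNAC044*, from 2.23 to 2.64 for *GmNAC085* minus *GmNAC084*, from -1.15 to -0.91 for *GmNAC044* minus *GmNAC084*, and from -0.11 to 0.21 for *GmNAC043* minus *GmNAC085*, which was -0.095 with array weights. Over all probes, 2864 were higher and 3401 lower. The methods' t-test called 1808 higher and 2000 lower, and without a fold minimum limma called 5131 and 5706. Of the 49 genes around the pairs, 1 was lower, 4 without a fold minimum, and 1 to 2 without each plant in turn (2 without drought-stressed plant 1 or plant 2, Glyma06g38430 being added). The higher gene, Glyma06g38350, was lost without drought-stressed plant 4, so that count ran from 0 to 1. Without each plant in turn, Glyma19g28480 ran from -0.52 to 0.25, with a change of sign: 0.25 without drought-stressed plant 1 and 0.055 without well-watered plant 15. With values that hold no level, signal over background could not be examined. No paired analysis was possible because the groups share no plant numbers.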
